A study of Homo sapiens with 6 samples.

Results

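Intermediate filaments are ropes of coiled-coil proteins that give a cell its mechanical frame, and which chains a cell makes marks its lineage. Neurons build them from the neurofilament light, medium and heavy chains (NEFL, NEFM and NEFH) with alpha-internexin (INA) and peripherin (PRPH), neural progenitors add nestin (NES), and simple epithelia pair a type II keratin (KRT7 or KRT8) with a type I keratin (KRT18 or KRT19). A neuroendocrine lung carcinoma can carry both kinds, which is why these 10 genes were read together. They were found by gene name, 10 rows of the 58735 in the table of counts, and 9 of the 10 passed the filter on low counts that left 17514 genes for testing. KRT19 did not pass.

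The 6 poly-A RNA-Seq libraries came from H1155, a neuroendocrine large cell lung cancer line grown without treatment in DMEM with 10% FBS. Of these, 3 were labelled WT (genotype Wildtype) and 3 GFI1-KO (genotype GFI1 knockout), the latter from cells in which pairs of guides had been aimed at the promoter region of GFI1, a zinc finger repressor of blood cell development, before GFP-positive cells were sorted as monoclonal clones. The labels do not say whether the libraries of a group came from separate cultures or clones, so p-values measure the spread between libraries, and the clone and the genotype cannot be told apart. Library totals lay between 14882914 and 17692882 counts. The edited gene itself had 153, 106 and 125 counts in WT and 174, 188 and 170 in GFI1-KO. Its log2 fold change of 0.31 (adjusted p = 0.0273, edgeR's quasi-likelihood test) was not called by DESeq2 (adjusted p = 0.0720) or without the second WT library (0.21, adjusted p = 0.147), and in no case was GFI1 lower under the knockout label. The paper also probed GFI1 protein by immunoblot in H1155 and knockout cells, and RNA counts do not measure protein. Each direction below is that of the libraries labelled GFI1-KO against those labelled WT.

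The label of the line was held up against cell type markers. All 13 neuroendocrine markers passed the filter, with a summed level of 869 to 882 FPKM (counts scaled by the length of the gene in kilobases and by the library total) in WT and 1122 to 1139 FPKM in GFI1-KO, led by the secretory granule gene SCG2 and the neuronal hydrolase gene UCHL1. Of these 13, 8 were higher and 5 lower in GFI1-KO, or 4 and 7 after the correction for GC content and length described below. Among all tested genes, 36.5% were called higher and 35.9% lower before that correction. None of the 7 haematopoietic markers passed the filter, and CD3E and HBB had no count. Of 9 fibroblast markers 5 passed, with 17.7 to 18.1 FPKM in WT and 12.6 to 13.1 in GFI1-KO in all, led by COL1A2 and PDGFRB, while DCN had no count. Of these 5, 3 were lower (COL1A2 and PDGFRB among them) and 2 higher, COL3A1 going from 2.49 ± 0.721 to 139 ± 18.8 and PDGFRA from 1.08 ± 1.11 to 14.8 ± 1.54 normalized counts (SD, n = 3). Of 6 endothelial markers 3 passed, led by PECAM1 and CLDN5, with 3.71 to 4.15 FPKM in WT and 2.68 to 2.82 in GFI1-KO. These went both ways, with 1 lower, 1 higher and 1 not called. PECAM1 went from 455 ± 29.2 to 209 ± 7.91 normalized counts and CLDN5 from 10.6 ± 1.4 to 48.6 ± 10.9 (SD, n = 3).

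The neuronal chains changed their balance. In GFI1-KO the genes of all 3 neurofilament chains and of peripherin were higher, NEFH by 3.96-fold, while INA was the only member called lower by this scaling. In bulk RNA, fewer cells that make a chain and less RNA per cell cannot be told apart. Nestin was 1.14-fold higher by this scaling and lower after a correction for GC content and length. Among the keratins KRT8 was 1.36-fold higher, and KRT7 and KRT18 were not called. In all, 6 of the 9 tested members were higher and 1 lower where the threshold was an adjusted p of 0.05 (quasi-likelihood test of edgeR, Benjamini-Hochberg over all tested genes). This count of 7 called members has to be read against 72.4% of all tested genes called, 36.5% higher and 35.9% lower. The groups did not overlap for 7 of the 9, against 74.4% of all tested genes, so that the share of members called is near that of genes at large, and the sizes and directions carry the description.

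Across the table, fold changes ran with the GC content of the gene (Spearman's rho 0.574 over 17415 genes, which are not independent replicates), and the members run from 46.9% GC for NEFL to 63.4% for PRPH. With offsets that remove the trend with GC content and length from each library, rho was 0.0254. The members then split into 5 higher and 4 lower. Of all 17514 tested genes, 5688 were called higher and 4947 lower with these offsets. Whether the trend belongs to the libraries or to the cells was not tested, and corrected values are given beside each member.

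**Figure D1:**
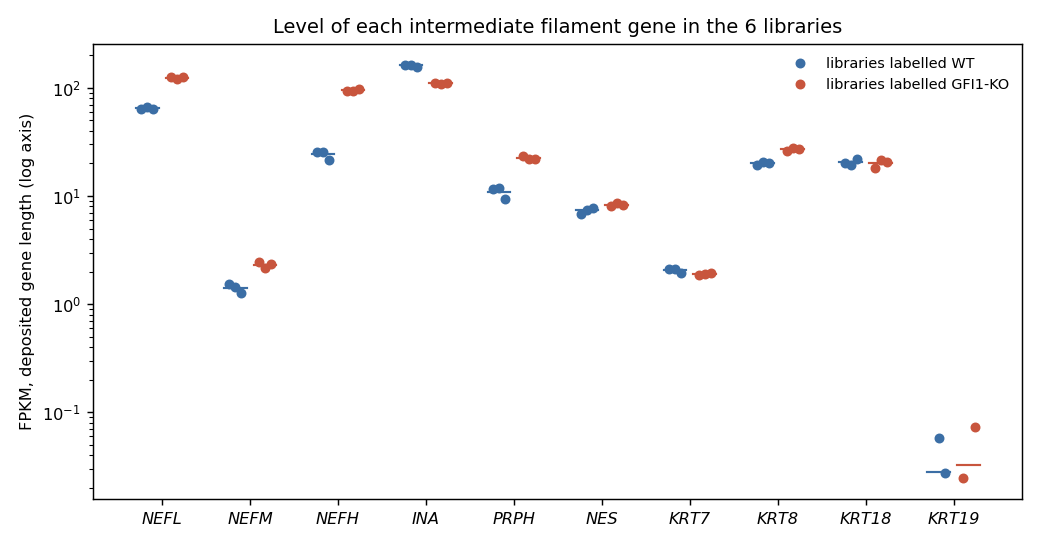
FPKM (deposited gene length, log axis) of the 10 genes in each library labelled WT (blue) and GFI1-KO (red), 1 point per library, with the mean of 3 as a line. Libraries of KRT19 without a count are not drawn but count in its mean. INA leads in WT at 161 FPKM and NEFL in GFI1-KO at 125, and KRT19 lies below 0.1 in all libraries.

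NEFL encodes the chain that nucleates the neurofilament core. It had 4567, 4745 and 4556 normalized counts (counts brought to a common library size by edgeR's TMM factors) in WT and 9040, 8835 and 9098 in GFI1-KO. Each GFI1-KO library lay far above each WT library, at 0.96 on the log2 scale (SE 0.03, adjusted p = 3.7e-19, edgeR) and of 1.02 after the GC and length correction. NEFL has the lowest GC content of the 10 members.

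NEFH, whose long phosphorylated tail projects from the filament, lies on chromosome 22 from 29480230 to 29491390 (GRCh38, plus strand). It had 1589, 1590 and 1348 normalized counts in WT and 5965, 5867 and 6108 in GFI1-KO. WT replicate 3 was the lowest, and every GFI1-KO library lay far above it. NEFH had the largest log2 fold change among the members, 1.99 (SE 0.05, adjusted p = 1.1e-22, edgeR), and 1.51 after the correction. Coding genes within 250000 bases on either side were looked at for each member after the members' values were known. Around NEFH 10 of 11 tested were higher and 1 lower (9 and 1 after the correction), against 36.5% higher over all tested genes. Around NES, which changed little, 12 of 17 were higher and 1 lower (8 and 2), around PRPH 5 of 12 were higher and 4 lower (3 and 5), around INA 2 of 8 were higher and 5 lower (2 and 4), and around the uncalled KRT18 4 of 7 were higher and 1 lower (3 and 1).

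NEFM, the middle-sized chain, was present at a small fraction of the level of its partners. It had 111, 103 and 92.4 normalized counts in WT and 179, 156 and 172 in GFI1-KO. The groups did not overlap, and NEFM rose by 0.73 on the log2 scale (SE 0.13, adjusted p = 1.3e-05, edgeR), or 0.53 after the correction. The antisense gene AF106564.1 covers 26.4% of the exon bases of NEFM. It had 146, 136 and 137 counts in WT and 107, 117 and 106 in GFI1-KO, more than NEFM itself in each WT library, and it fell by 0.51 on the log2 scale (adjusted p = 9.1e-04, edgeR) where NEFM rose. The strand setting of the counting is not given in the sources used here, so the reads of NEFM and of its antisense partner cannot be told apart in the overlap. NEFM and NEFL are neighbours on chromosome 8, from 24913012 to 24919098 and from 24950955 to 24957110, on opposite strands. An antisense gene over 19.8% of the exon bases of NEFL, AC107373.2, had no count in any library.

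The proportions of the 3 neurofilament chains, compared per kilobase within each library, shifted towards the heavy chain. The ratio of NEFH to NEFL was 0.398, 0.383 and 0.338 in WT and 0.755, 0.760 and 0.768 in GFI1-KO, a 2.04-fold rise of the mean with no overlap. That of NEFM to NEFL was 0.0218 ± 0.00197 in WT against 0.0186 ± 0.00105 in GFI1-KO (SD, n = 3), again without overlap. The ratio of PRPH to NEFL was 0.168 ± 0.0199 (SD, n = 3) and 0.180 ± 0.00578 (SD, n = 3), and these ranges overlapped. The absolute values rest on the deposited gene lengths. With canonical GENCODE transcript lengths, tried after the data had been seen, NEFH to NEFL was 0.308 ± 0.0257 in WT against 0.628 ± 0.0055 in GFI1-KO (SD, n = 3). PRPH to NEFL was then 0.337 ± 0.0399 in WT against 0.36 ± 0.0116 in GFI1-KO (SD, n = 3). The correction, applied to the ratios after the data had been seen, moved the GFI1-KO over WT fold of NEFH to NEFL from 2.04 to 1.41 and that of PRPH to NEFL from 1.07 to 0.653.

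INA encodes alpha-internexin, a neurofilament partner that appears early in neuronal development. The gene lies on chromosome 10 from 103277163 to 103290351 (plus strand) and had 8658, 8719 and 8370 normalized counts in WT and 5946, 5890 and 5956 in GFI1-KO. All GFI1-KO libraries lay below all WT libraries, a decrease of 1.45-fold (log2 fold change -0.53, SE 0.03, adjusted p = 3.9e-14, edgeR), and of -0.69 on the log2 scale after the correction. Of the summed FPKM of the 5 neuronal chains, INA made up 61.4% ± 0.615 in WT against 31.1% ± 0.212 in GFI1-KO (SD, n = 3). Its ratio to NEFL went from 2.49 ± 0.0454 (SD, n = 3) to 0.884 ± 0.00831 (SD, n = 3), so that NEFL took the first place. With canonical transcript lengths this ratio was 2.05 ± 0.0374 in WT against 0.727 ± 0.00683 in GFI1-KO (SD, n = 3). The shares rest on deposited lengths and were not recomputed. The gene NT5C2, on the opposite strand, covers 13.9% of the exon bases of INA and had a log2 fold change of -0.24 (adjusted p = 6.8e-04, edgeR).

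PRPH encodes peripherin, a type III chain of peripheral neurons. The gene lies on chromosome 12 from 49293252 to 49298686 (plus strand) and had 829, 853 and 665 normalized counts in WT and 1682, 1609 and 1589 in GFI1-KO. WT replicate 3 was again the lowest, and the groups stood well apart (log2 fold change 1.06, SE 0.06, adjusted p = 3.3e-14, edgeR). After the correction for GC content and length the log2 fold change was 0.40 (adjusted p = 9.2e-07, edgeR). PRPH has the highest GC content of the members. In GENCODE release 44 the antisense gene TROAP-AS1 covers 71.5% of the exon bases of PRPH. The deposited table lists an antisense gene at PRPH as AC125611.4, with 15 to 35 counts per library.

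**Figure D2:**
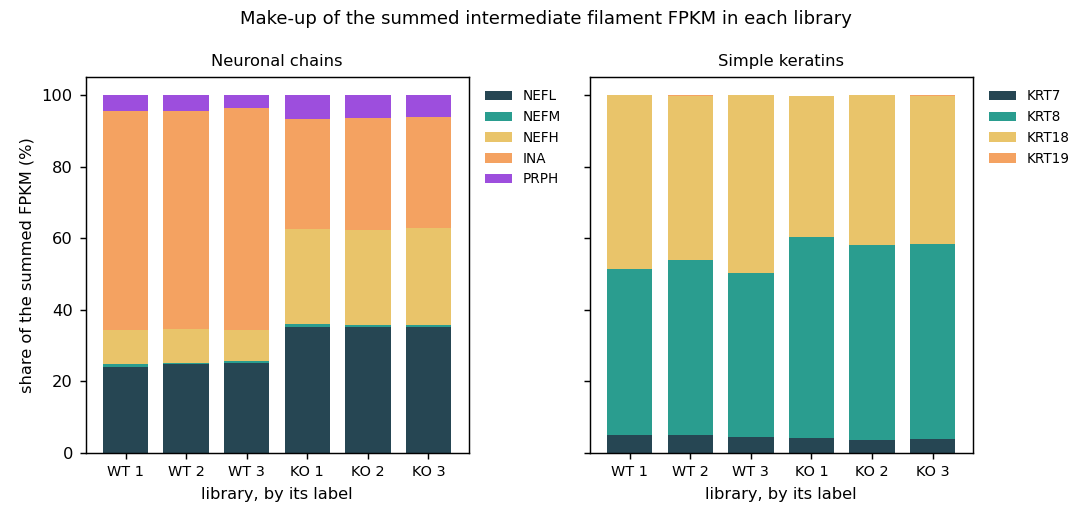
Share of the summed FPKM (deposited gene length, percent) that each gene takes within the 5 neuronal chains (left) and the 4 simple keratins (right), 1 bar per library. INA drops from 60.9 to 62.1% in WT to 30.9 to 31.3% in GFI1-KO while NEFH goes from 8.54 to 9.61% to between 26.6 and 27.1%.

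NES, the type IV chain of neural progenitors, spans 156668763 to 156677397 of chromosome 1 (minus strand). It had 626, 683 and 716 normalized counts in WT and 754, 797 and 765 in GFI1-KO. The highest WT library was close to the lowest GFI1-KO library, and the log2 fold change was small (0.19, SE 0.06, adjusted p = 0.00560, edgeR). Without the first WT library it was 0.14 (adjusted p = 0.0687, edgeR) and no longer called, and after the GC and length correction it turned to -0.27 (adjusted p = 3.5e-04, edgeR). Vimentin (VIM), the type III chain with which nestin co-assembles, went from 1792 ± 28.1 to 3031 ± 56.5 normalized counts (SD, n = 3), which is 0.76 on the log2 scale (adjusted p = 6.0e-16, edgeR) that was 0.85 after the correction. The ratio of NES to VIM per kilobase was 0.319, 0.354 and 0.376 in WT and 0.232, 0.248 and 0.230 in GFI1-KO, with no overlap.

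Promoter windows were in the RefSeq table (GRCh38.p14) for 4 of the 10 members, INA, PRPH, NES and KRT8. Shown are the 250 bases before the start of the 3 whose window ends at the start of their canonical GENCODE transcript, since these genes moved in different ways, INA falling, PRPH rising and NES depending on the correction. They are written 5′ to 3′ on the strand of the gene. Capitals mark matches to TATAAA, the TATA box, and to GGGCGG, the GC box, on either strand (CCGCCC where on the other strand). The windows of INA and PRPH are on the plus strand of chromosomes 10 (chr10:103276888-103277137) and 12 (chr12:49294897-49295146), that of NES on the minus strand of chromosome 1 (chr1:156677408-156677657).
INA: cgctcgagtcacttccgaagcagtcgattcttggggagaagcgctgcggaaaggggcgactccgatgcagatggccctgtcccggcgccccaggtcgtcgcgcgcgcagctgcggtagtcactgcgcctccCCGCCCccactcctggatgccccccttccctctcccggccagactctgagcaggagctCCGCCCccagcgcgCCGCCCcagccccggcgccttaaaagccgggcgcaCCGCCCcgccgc
PRPH: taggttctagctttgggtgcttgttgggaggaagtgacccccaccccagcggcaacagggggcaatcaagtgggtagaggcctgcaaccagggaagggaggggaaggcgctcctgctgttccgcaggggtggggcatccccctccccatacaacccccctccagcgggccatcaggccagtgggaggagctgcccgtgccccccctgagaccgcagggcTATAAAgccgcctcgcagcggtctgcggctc
NES: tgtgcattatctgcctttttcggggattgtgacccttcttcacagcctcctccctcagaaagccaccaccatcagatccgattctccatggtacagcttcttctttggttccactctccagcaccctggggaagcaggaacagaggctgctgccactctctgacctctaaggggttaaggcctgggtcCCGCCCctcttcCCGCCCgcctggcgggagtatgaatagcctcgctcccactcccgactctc

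The windows differ in make-up. That of INA is 72.8% GC and holds 4 GC boxes and no TATAAA, that of PRPH is 66.8% GC and holds TATAAA beginning 31 bases before the start, and that of NES is 58.0% GC and holds 2 GC boxes. Over all 35116 RefSeq windows, 42.6% hold a GC box and 10.7% a TATAAA in the same 250 bases. The motif AAATCA, part of the GFI1 site, and the AP-1 motif TGANTCA occur in 11.6% and 6.57% of all windows and in none of these 3. The shorter core AATC, counted after the data had been seen and not put in capitals, occurs on either strand once in INA, once in PRPH and at 2 places in NES, and in 64.8% of all windows. The KRT8 window starts 21393 bases before the start of the canonical KRT8 transcript and is not shown. It does hold AAATCA, on the other strand, beginning 8 bases before the RefSeq start.

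Of the simple keratins, KRT8 was called higher and the others were not, while after the correction KRT7 and KRT18 were called lower. KRT8, the type II keratin of simple epithelia, spans 52897187 to 52949954 on the minus strand of chromosome 12 and had 2207, 2325 and 2300 normalized counts in WT and 2987, 3201 and 3127 in GFI1-KO. The groups were clearly separated (log2 fold change 0.45, SE 0.04, adjusted p = 4.0e-11, edgeR), and the difference was 0.14 (adjusted p = 0.00124, edgeR) after the correction. KRT18, its type I partner, lies next to it on the plus strand from 52948871 to 52952901 and had 1080, 1026 and 1160 normalized counts in WT and 981, 1148 and 1107 in GFI1-KO. These ranges overlapped, with a log2 fold change of -0.01 (95% interval -0.13 to 0.10, adjusted p = 0.833, edgeR), but after the correction KRT18 was called lower at -0.41 (adjusted p = 1.2e-06, edgeR).

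The balance of this keratin pair differed between the groups. The ratio of KRT18 to KRT8 per kilobase was 1.05, 0.944 and 1.08 in WT and 0.702, 0.767 and 0.757 in GFI1-KO, without overlap. Its absolute value rests on the gene length used, since the deposited length is 6881 bases for KRT8 and 3218 for KRT18 and the canonical GENCODE transcripts have 1784 and 1413. With the latter the ratio was 0.604 ± 0.0415 in WT against 0.438 ± 0.0206 in GFI1-KO (SD, n = 3).

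Both keratin genes have many processed copies in the genome, and 16.1% of the 50-base words of KRT8 transcripts and 25.6% of those of KRT18 also occur in other genes. The 50 rows named as KRT8 pseudogenes summed to 173, 166 and 157 counts in WT and 238, 238 and 235 in GFI1-KO, between 7.05 and 8.03% of KRT8 in each library. Their sum was higher in each GFI1-KO library, as that of KRT8 was, with KRT8P12 and KRT8P30 the most counted. The 67 KRT18 pseudogene rows had between 54 and 72 counts per library, or 4.59 to 6.82% of KRT18, led by KRT18P5 and KRT18P59. KRT8 and KRT18 also share 525 exon bases on opposite strands, 7.63% of KRT8 and 17.1% of KRT18, so their counts carry that uncertainty.

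KRT7, a type II keratin of glandular and airway epithelium, spans 52232520 to 52252186 on chromosome 12 and had 143, 143 and 131 normalized counts in WT and 128, 128 and 133 in GFI1-KO. The ranges overlapped, and the log2 fold change of -0.10 (95% interval -0.34 to 0.14, adjusted p = 0.454, edgeR) was not called. After the correction it was -0.72 (adjusted p = 1.2e-05, edgeR). KRT19, a small type I keratin on chromosome 17 from 41523617 to 41528308, had 0, 2 and 1 counts in WT and 1, 0 and 3 in GFI1-KO, at or under the 3 counts taken as the smallest level a library can show, which correspond to 0.0726 to 0.0863 FPKM for this gene. No difference was detectable at this depth.

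Epithelial markers were called in both directions. Of 12 listed, 10 were tested and gave 2 higher and 6 lower in GFI1-KO (2 and 7 after the correction). Over all tested genes 72.4% were called, 36.5% higher and 35.9% lower. The summed level of the 12 markers was 191 to 195 FPKM in WT and 102 to 105 in GFI1-KO. Most of that sum was CD24, a surface glycoprotein, at 169 FPKM in WT and 82.1 in GFI1-KO, followed by the tight junction gene CLDN3 at 10.6 and 10.3, which was not called (log2 fold change -0.02) but was -0.88 after the correction (adjusted p = 1.1e-08, edgeR). Further genes, chosen once their values were known, went both ways. The adhesion genes EPCAM and CDH1 had 66.9 ± 13.3 and 27.0 ± 8.11 normalized counts in WT against 14.2 ± 5.91 and 5.39 ± 4.30 in GFI1-KO (SD, n = 3). The tight junction gene CLDN7 and the epithelial regulator gene GRHL2, both called higher, had 12.8 ± 3.36 and 2.45 ± 1.54 in WT against 55.6 ± 13.4 and 12.9 ± 1.47 in GFI1-KO (SD, n = 3). The part of these changes in the keratin values was not tested.

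**Figure D3:**
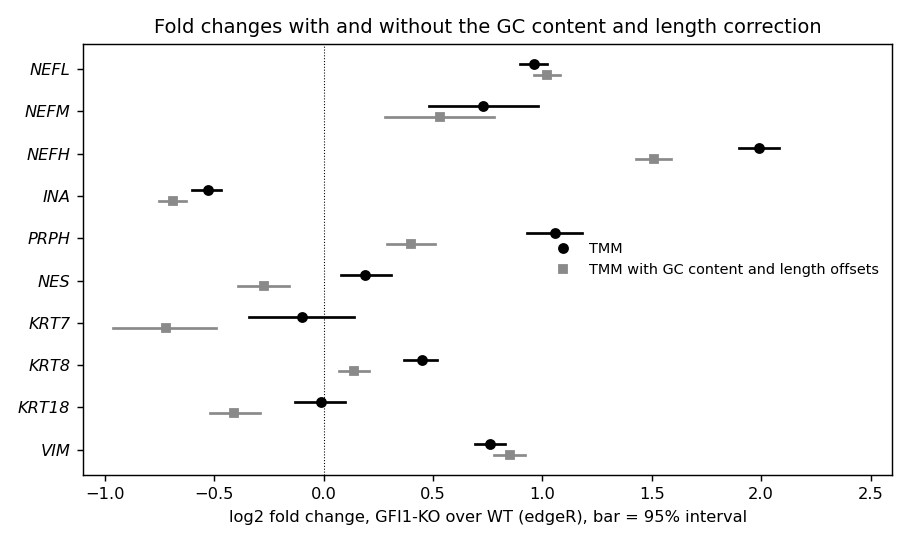
Log2 fold change (GFI1-KO over WT, edgeR) of the 9 tested members and VIM, by TMM scaling (black circles) and with offsets for GC content and length (grey squares), bars giving the 95% interval. NEFL, NEFM, NEFH, PRPH, KRT8 and VIM lie above 0 and INA below 0 under both, and NES changes sign. The intervals of KRT7 and KRT18 include 0 by TMM scaling and lie wholly below 0 with the offsets.

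The order of the members by FPKM differed between the groups. In WT it was INA, NEFL, NEFH, KRT18, KRT8, PRPH, NES, KRT7, NEFM and KRT19, in which the ranges of NEFH and KRT18 and of KRT18 and KRT8 overlapped and other neighbours did not. In GFI1-KO it was NEFL, INA, NEFH, KRT8, PRPH, KRT18, NES, NEFM, KRT7 and KRT19, with no overlap between neighbours. INA in WT, at 161 ± 3.46 FPKM (SD, n = 3), was above 99.3% of all tested genes, and NEFL in GFI1-KO, at 125 ± 1.93 FPKM (SD, n = 3), above 98.7%. NEFM, at 1.41 ± 0.126 and 2.32 ± 0.159 FPKM (SD, n = 3), was above 27.7% and 36.2%. With canonical transcript lengths, tried after the data had been seen, KRT8 ranked 3 in both groups. Its level was then 77.5 ± 2.15 FPKM in WT against 104 ± 3.71 in GFI1-KO (SD, n = 3). NEFH ranked 6 in WT and 4 in GFI1-KO, and KRT18 ranked 4 in WT and 6 in GFI1-KO. INA and NEFL still changed places at the top. KRT7 ranked 8, NEFM 9 and PRPH 5 in both groups, so KRT7 and NEFM did not change places with these lengths.

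Other genes of the intermediate filament system were read from 4 lists of 82 genes in all, of which 48 were tested. Among the 48, 20 were higher and 20 lower, against 36.5% and 35.9% of all tested genes. The median log2 fold change of the 48 was 0.01 against 0.00 for all tested genes. Keratins beyond the members summed to 19.1 to 21.1 FPKM in WT and 19.7 to 20.1 in GFI1-KO, mostly KRT10 at 11.6 and 15.4. Of the 32, 25 had fewer than 10 counts in every library, 11 of them none, and 4 were tested. KRT80, an epithelial keratin, fell from 335 ± 13 to 122 ± 5.86 normalized counts (SD, n = 3; log2 fold change -1.46, adjusted p = 4.3e-13, edgeR), and KRT75 fell with it (log2 fold change -0.83, adjusted p = 2.0e-04, edgeR). KRT10, a keratin of the differentiated epidermis, was higher (log2 fold change 0.43, adjusted p = 6.4e-06, edgeR).

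Of 12 other intermediate filament genes 10 were tested, and 7 were higher, 1 lower and 2 not called. Over all tested genes 36.5% were higher and 35.9% lower. The median of the 10 was 0.73 on the log2 scale, or 0.23 after the correction. The nuclear lamins parted. LMNA, the gene of lamins A and C, rose by 0.91 on the log2 scale and LMNB2 by 0.78, while LMNB1 fell by 0.46 from 6645 ± 290.0 to 4830 ± 173 normalized counts (SD, n = 3), each called by edgeR. IFFO2, a filament orphan gene, rose by 0.84. After the correction the values were 0.39, 0.24, -0.61 and 0.50, with 6 of the 10 higher and 1 lower.

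Proteins that tie filaments to other structures moved in both directions. Of 18 linkers and desmosome genes 14 were tested, 3 being higher and 7 lower, or 5 and 6 after the correction. Their median log2 fold change was -0.22. Before the correction 36.5% of all tested genes were higher and 35.9% lower. PLEC, the gene of plectin, which ties filaments of all kinds to actin, microtubules and adhesions, rose from 4728 ± 169 to 10941 ± 143 normalized counts (SD, n = 3; log2 fold change 1.21, adjusted p = 5.7e-21, edgeR), and by 0.58 after the correction. The keratin linker genes PPL (periplakin, log2 fold change -1.99) and EPPK1 (epiplakin, -1.87) and the desmosomal cadherin genes DSC2 (-1.39) and DSG2 (-0.81) fell, all called by edgeR and still lower after the correction. PERP, a desmosomal membrane protein gene, was 1626 ± 28.7 and 1740 ± 65.9 normalized counts (SD, n = 3; log2 fold change 0.10, adjusted p = 0.0400, edgeR), and was not called by DESeq2 (adjusted p = 0.107). After the correction PERP was called higher at 0.47 (adjusted p = 3.0e-10, edgeR).

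**Figure D4:**
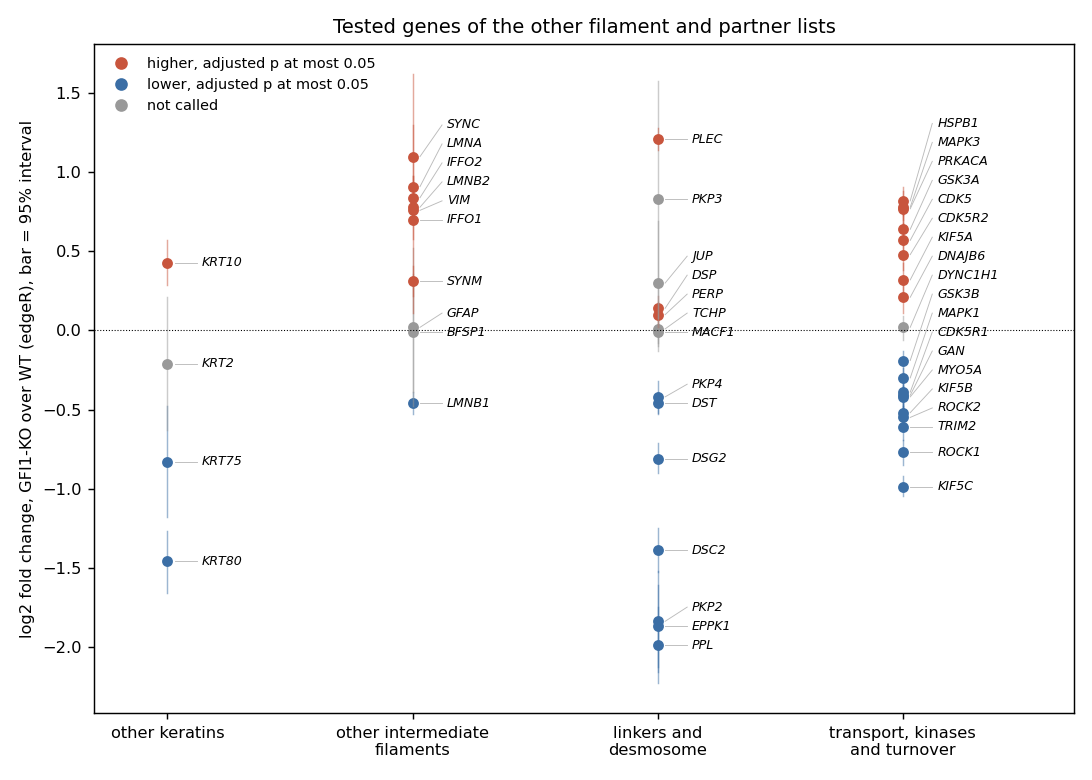
Log2 fold change (GFI1-KO over WT, edgeR) of tested genes from the 4 lists, with the 95% interval as a bar and genes coloured red (higher), blue (lower) or grey (not called). PLEC stands at 1.21 among the linkers while PPL, EPPK1 and DSC2 lie between -1.99 and -1.39.

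The 20 genes that carry, phosphorylate or clear neurofilaments were all tested, giving 9 higher and 10 lower, or 6 and 7 after the correction. Their median log2 fold change was -0.09. Before the correction 36.5% of all tested genes were higher and 35.9% lower. KIF5C and KIF5B encode kinesin heavy chains that carry cargo along axons. KIF5A, another such gene of the list, named once its values were known, was higher (log2 fold change 0.32, adjusted p = 1.2e-05, edgeR). After the correction KIF5A was at 0.25. KIF5C fell from 6310 ± 133 to 3187 ± 93.9 normalized counts (SD, n = 3; log2 fold change -0.99, adjusted p = 6.0e-19, edgeR; -0.55 after the correction), and KIF5B by 0.52 on the log2 scale, which the correction brought to -0.04 (adjusted p = 0.292, edgeR). HSPB1, a small heat shock protein gene, had a log2 fold change of 0.82 that was 0.07 (adjusted p = 0.0881, edgeR) after the correction. CDK5R2, an activator gene of the neurofilament kinase CDK5, had 0.48 and turned to -0.30 after it.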

How the data were processed

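RNA-Seq counts of 3 libraries labelled WT and 3 labelled GFI1-KO were analysed. The authors deposited raw counts per gene with gene coordinates and lengths. The paper's methods name Hisat2, featureCounts and GRCh38, while the submitters' processing notes list Bowtie2, HTSeq and hg38. The annotation release, strand setting and multi-mapping rule are not given in the sources used here. Genes were tested with edgeR 4.0.16 in R 4.3.3 (TMM, filterByExpr, quasi-likelihood F test, Benjamini-Hochberg adjustment, adjusted p of at most 0.05, no fold minimum). Standard errors (SE) were taken as the fold change on the log2 scale over the root of the F statistic, and 95% intervals take 1.96 of them. FPKM was computed from counts, deposited gene length and library totals. The floor of 3 counts covers counting error only. The correction for GC content (longest GENCODE release 44 transcript) and length used natural splines of 5 degrees of freedom per library.

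Alternatives were DESeq2 1.42.0, limma-voom (limma 3.58.1), other scalings, filters and thresholds, the replicate number as a block, each library left out, pseudogene counts added and canonical transcript lengths. Replicates differed by more than sampling noise. The fit was tested on simulated data. The members and gene lists were chosen with earlier results of these data known. Named were the members, GFI1, VIM, per list the 3 genes of highest FPKM and the 3 of largest change among called ones without overlap and with 100 counts or more on average, 2 per marker list, the 2 pseudogenes of each parent with most counts, and genes overlapping members. Of the genes this rule names, 1 is not reported here. Protein sequences were not used. Figures were drawn with matplotlib 3.10.9.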

Additional observations from a re-analysis of the deposited data

How the results depend on the processing

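Of 146 alternative values of the 9 tested members' log2 fold changes, 137 kept their direction and their side of the threshold, 4 became significant, 1 lost significance and 4 changed sign. NEFL (0.92 to 1.02), NEFM (0.53 to 0.79), NEFH (1.51 to 2.02), INA (-0.69 to -0.52), PRPH (0.40 to 1.11) and KRT8 (0.14 to 0.48) were called in the same direction throughout, at the adjusted p threshold. With GC content and length offsets, without or with the replicate block, 4 members were called lower, NES turned to -0.27 (adjusted p = 3.5e-04 and 2.8e-04, edgeR), CDK5R2 to -0.30 and UCHL1 to -0.42, and KRT7 (-0.72), KRT18 (-0.41) and CLDN3 (-0.88, or -0.89 with the block) became significant. The cause was not tested. With an absolute log2 fold change of at least 1 as a further requirement, 3068 genes were called in place of 12680, 2 members were higher and 0 lower, and 3 list genes were higher and 5 lower. Leaving out 1 library at a time gave 12150 to 12499 called genes, 5 to 6 members higher, 1 lower, and 18 to 20 list genes higher and 20 to 21 lower. NES was not called without WT replicate 1 (0.14, adjusted p = 0.0687, edgeR). Uncalled KRT18 ranged from -0.06 without WT replicate 2 to 0.03 without WT replicate 3 and 0.05 without GFI1-KO replicate 1, and CLDN3, not called without the offsets, from -0.07 without WT replicate 3 to 0.01 without GFI1-KO replicate 2. Same-numbered libraries did not deviate together (r of -0.00617, 0.0134 and 0.0213). The replicate block gave 12573 calls and changed no call of a member, while PERP was no longer called with it (adjusted p = 0.0506, edgeR). KRT19, NEFM and KRT7 are the members that depth limits most.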
